A study of Arabidopsis thaliana with 4 samples.

Results

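The 9 genes described here act in seed dormancy and germination in Arabidopsis thaliana. Summits called for the embryo regulator LEC1 in developing seeds are described on and near these genes. They are DOG1 (AT5G45830), its relatives DOGL1 (AT4G18660), DOGL2 (AT4G18680), DOGL3 (AT4G18690) and DOGL4 (AT4G18650), MFT (AT1G18100), RDO5 (AT4G11040), HUB1 (AT2G44950) and SOM (AT1G03790). They were taken by locus identifier from the 27444 nuclear protein-coding genes, and every called summit inside a gene or up to 1000 bp outside either end was assigned to it. In the chromatin immunoprecipitation (ChIP-seq) all libraries came from lec1-4 mutant plants that carried pLEC1:LEC1-FLAG, a tagged copy of LEC1 under its own promoter. Plants were kept at 22°C in long days (16 h light, 8 h dark). The tissue was whole developing seeds, labelled as the mature stage, while the series title names embryo expansion, and peak lists measure no marker genes against which the stage could be checked. There were 2 biological replicates of the precipitation with an anti-FLAG antibody and 2 matching input libraries of total chromatin. No precipitation from plants without the tag was analysed here, so signal of LEC1-FLAG and background of the antibody cannot be told apart at any of these genes.

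LEC1 is a seed-specific NF-YB subunit, a histone-fold protein that joins NF-YC and then NF-YA or other transcription factors on DNA, and it drives embryo development and maturation. Primary dormancy, the block that keeps a fresh viable seed from germinating, is laid down during maturation. DOG1 protein sets how deep that block is, acting together with abscisic acid through the phosphatases AHG1 and AHG3, while gibberellin and light act against it.

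Each replicate had its own list of summits, called by the authors for the ChIP library over its input. Replicate 1 used 4454133 ChIP tags and 7578894 input tags and gave 15542 nuclear summits. Replicate 2 used 4493099 ChIP tags and 9646586 input tags and gave 3777. The pileup is the number of extended ChIP fragments over a summit. Fold, also called fold over input, is that pileup over the background the peak caller used there, with 1 added to both. Local input and any genome-wide floor were not separated in that background. In replicate 1 the background value of 7.96 recurred at summits on different chromosomes. Median fold over all summits was 3.70 in replicate 1 and 3.29 in replicate 2. Pileup, fold and significance are the authors' own values for each peak. Intervals beside a fold are 95% exact Poisson intervals of the pileup, which cover counting error of the ChIP fragments only. At most 1 tag per position and strand was kept, so PCR copies at the same position and strand were counted once.

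A LEC1-FLAG summit was called in the window in both replicates for 5 of the 9 genes, namely MFT, SOM, RDO5, DOG1 and DOGL1. HUB1, DOGL2, DOGL3 and DOGL4 had a summit in replicate 1 and none in replicate 2. The share of all protein-coding genes with a summit in the same window was 13.3% in both replicates, 48.2% in replicate 1 and 13.5% in replicate 2. Replicate 1 by itself met all 9 genes and replicate 2 met 5. The 9 genes were chosen with earlier results of these data known, so the shares give no test of these counts. With −log10 q of at least 10, MFT and SOM remained in both replicates (2.95% of all genes), 6 of the 9 in replicate 1 (27.7%) and 2 in replicate 2 (2.98%). The replicate 2 summits that kept SOM there lay 762 and 909 bp outside it, nearer to the neighbouring gene ERF10. With summits required within 150 bp of one of the other replicate, the 5 genes were the same (12.7% of all genes). The 9 genes had a median length of 1845 bp, against 2078 bp for all protein-coding genes. In all, 20 summits of replicate 1, in 17 peaks, and 9 summits of replicate 2, in 7 peaks, fell in the 9 windows. Every one of the 9 replicate 2 summits belonged to a peak that overlapped a replicate 1 peak by at least 50% of the shorter one, and 9 of the 20 replicate 1 summits did. Over all nuclear peaks, 3182 of 3361 in replicate 2 and 3125 of 13894 in replicate 1 had such a partner. With the added 1, background at these summits was 7.96 to 10.4 fragments in replicate 1 and 6.74 to 7.52 in replicate 2. These values were near the medians of 8.92 and 7.52 over all summits.

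**Figure D1:**
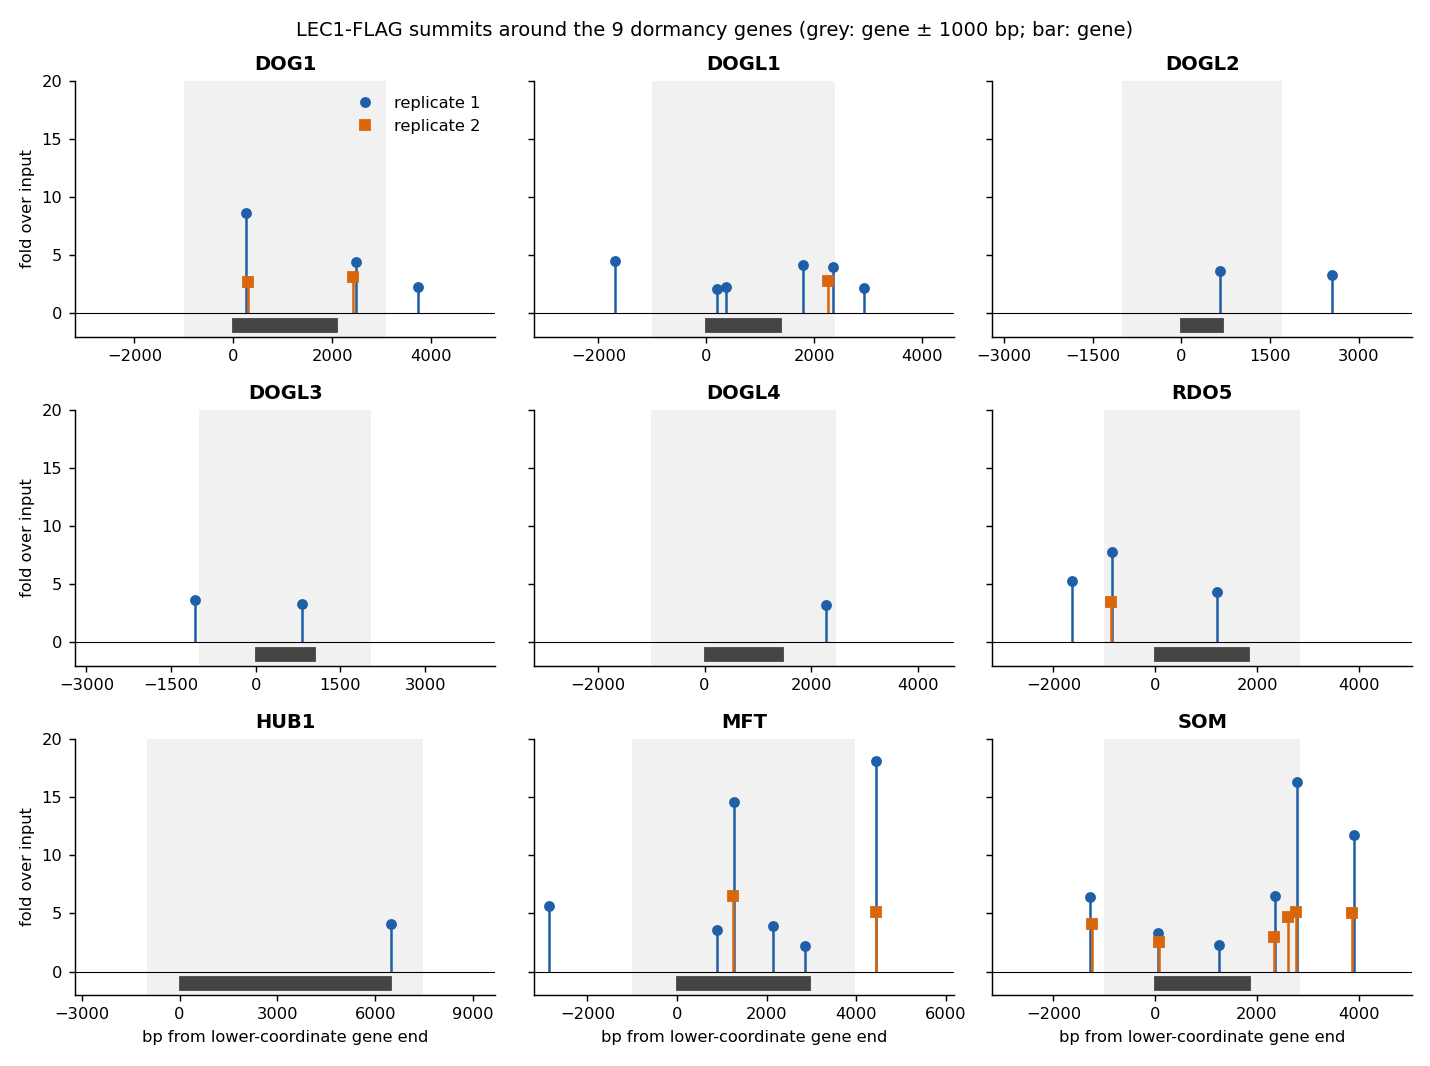
Position and fold over input of every LEC1-FLAG summit within 3000 bp of each of the 9 genes, by distance in bp from the gene end with the lower coordinate (circles, replicate 1; squares, replicate 2). The grey band is the gene with 1000 bp on either side; MFT and SOM carry the highest summits in both replicates, and 4 panels have no square inside the band.

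DOG1, the main determinant of dormancy depth, had a pair of summits in each replicate, at the same places. The first lay inside the gene, 258 bp from the end with the lower coordinate, at position 18589676 of chromosome 5 in replicate 1, and at 18589708, 32 bp away, in replicate 2. Its pileup was 75 fragments in replicate 1 and 19 in replicate 2. The fold was 8.60 (6.79 to 10.8) in replicate 1 and 2.66 (1.65 to 4.08) in replicate 2. The second summit lay outside the other end, by 387 bp at position 18591893 in replicate 1 and by 335 bp at position 18591841 in replicate 2. There the pileup was 36 and 20 fragments, and the fold was 4.44 (3.15 to 6.10) in replicate 1 and 3.12 (1.96 to 4.73) in replicate 2.

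The replicates did not give the DOG1 summits the same order. In replicate 1 the interior summit was the higher, with intervals that did not overlap, and 89.0% of all replicate 1 summits had a lower fold. In replicate 2 both stood at nearly the same pileup, their intervals overlapped widely, and only 17.6% of all replicate 2 summits had a lower fold than the interior one. The interior peak kept 0.309 of its replicate 1 fold in replicate 2 and the outer peak kept 0.702. Over all 3188 pairs of shared peaks the median ratio was 0.412 (middle 50%, 0.327 to 0.540), so the DOG1 peaks lay on opposite sides of the middle range. A pair needs a called replicate 2 peak, so the lower replicate 1 fold of the outer peak left less room for a low ratio. The 2 ratios therefore do not show that the sites differ. The −log10 q of the DOG1 summits in replicate 2 was 2.59 and 3.80, and no DOG1 summit of that replicate reached 5. The interior summit also lay in the window of CIPK20, a protein kinase gene, 884 bp outside it in replicate 1.

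The 4 DOGL genes, relatives of DOG1 by sequence, lie within 19.8 kb of chromosome 4. Summits in their windows lay on both sides of the replicate 1 median fold of 3.70. Of all replicate 1 summits, 58.2% had a lower fold than the strongest of these. In replicate 1 this stretch, with 1000 bp on either side, held 9 summits of 2.09-fold to 4.52-fold, 412 per Mb against 131 per Mb between the first and last summit of all chromosomes. Replicate 2 had a single summit there, at 2.79-fold, or 45.8 per Mb against 31.8 per Mb. The stretch was drawn around chosen genes and was not compared with other stretches that hold genes. The rates therefore do not show that it is unusual. The strongest of the 9 lay 1686 bp outside DOGL1 at position 10271794, beyond the window of any protein-coding gene.

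DOGL1 was the only DOGL gene met in both replicates, and it shared that site with its neighbour. Replicate 1 had 4 summits in the DOGL1 window, at positions 10273680 and 10273851 inside the gene (2.09-fold and 2.26-fold) and at 10275277 and 10275827 beyond its higher-coordinate end (4.15-fold and 4.01-fold). The summits beyond the end had pileups of 36 fragments each, those inside 16 and 17. The single replicate 2 summit, at position 10275733 with 20 fragments (2.79-fold, 1.76 to 4.24), was 94 bp from the outermost of these and 456 bp from the strongest. It lay 861 bp outside DOGL1 and inside AT4G18670, and with each summit given only to its nearest gene DOGL1 was not met in replicate 2.

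DOGL2, DOGL3 and DOGL4 had 1 summit each, in replicate 1. The DOGL2 summit, with 36 fragments, lay inside the gene 51 bp from its higher-coordinate end at position 10281689 (3.66-fold, 2.59 to 5.02). The DOGL3 summit, with 26 fragments, lay inside its gene at position 10283579 (3.32-fold, 2.21 to 4.80). The DOGL4 summit, with 25 fragments, lay 804 bp outside at position 10266243 (3.27-fold, 2.16 to 4.76). All 3 stood below the replicate 1 median fold of 3.70, and their intervals overlapped one another. The nearest replicate 2 summits were 5956, 7846 and 9490 bp away from those of DOGL2, DOGL3 and DOGL4.

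**Figure D2:**
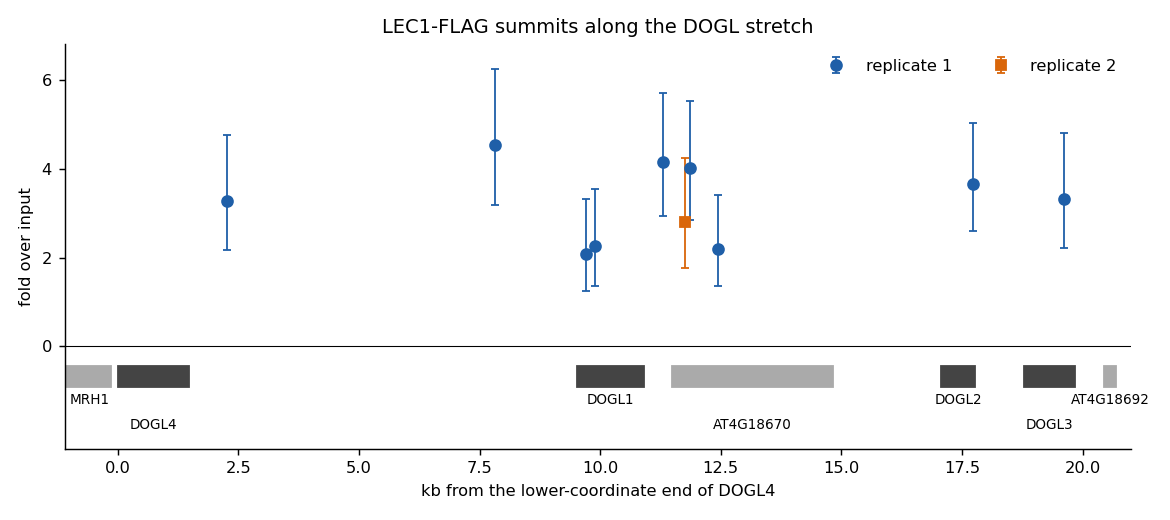
Fold over input of all summits along the stretch of chromosome 4 that holds DOGL4, DOGL1, DOGL2 and DOGL3 (dark bars; other protein-coding genes in light grey), by distance in kb from the lower-coordinate end of DOGL4. Bars on the points are 95% Poisson intervals of the pileup; the 9 replicate 1 summits lie between 2.09 and 4.52, and the single replicate 2 summit, at 2.79, lies beside DOGL1 and inside AT4G18670.

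RDO5 encodes a protein of the PP2C phosphatase family whose loss lowers dormancy. Its shared site lay outside the gene, by 861 bp at position 6744239 of chromosome 4 in replicate 1 and by 867 bp at position 6744233 in replicate 2. These summits were 6 bp apart, the closest of the 7 shared pairs at the 9 genes, which ran up to 94 bp against a median of 37 bp over all shared pairs. The pileup was 63 fragments in replicate 1 and 24 in replicate 2, and the fold was 7.75 (5.99 to 9.89) and 3.45 (2.26 to 5.07). No other protein-coding gene had this site in its window. Inside RDO5, replicate 1 had a second summit at position 6746318 with 34 fragments and 4.31-fold (3.02 to 5.97), for which replicate 2 had none. A further replicate 1 summit at 5.31-fold lay 1637 bp outside the gene on the side of the shared site, beyond the window.

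HUB1 encodes a ubiquitin ligase that marks histone H2B, and its loss also lowers dormancy. It is the longest of the 9 genes, at 6478 bp, and had 1 summit, in replicate 1, only 4 bp outside its higher-coordinate end at position 18548656 of chromosome 2. The pileup was 36 fragments, the fold 4.05 (2.87 to 5.57), and AT2G44970 lay 157 bp away. The nearest replicate 2 summit was 3578 bp away.

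MFT, a relative of the flowering regulators FT and TFL1 that acts in abscisic acid signalling of germinating seeds, had the strongest site of the 9 genes in replicate 2. It lay inside the gene as annotated, 1266 bp from the lower-coordinate end, at position 6228483 of chromosome 1 in replicate 1 and 11 bp away at position 6228472 in replicate 2. The pileup was 123 fragments in replicate 1 and 45 in replicate 2. The fold was 14.6 (12.2 to 17.4) in replicate 1 and 6.52 (4.79 to 8.68) in replicate 2. It ranked 342nd by fold among the replicate 1 summits and 117th among those of replicate 2, and its −log10 q was 98.8 and 20.6. MFT stood 110th of the 3651 genes met in both replicates when these were ordered by the smaller of their folds.

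The neighbourhood of the MFT site is crowded, and further summits lay around it. The gene model of AT1G18090 overlaps that of MFT by 606 bp, and the strong summit lay 661 bp outside AT1G18090 in replicate 1. A long non-coding RNA gene, AT1G05383, covers 550 bp of MFT. In replicate 1, MFT held 3 weaker summits, at positions 6228117 (3.58-fold), 6229360 (3.90-fold) and 6230081 (2.21-fold), and replicate 2 had no summit at these. Beyond the window, 1456 bp outside the higher-coordinate end at position 6231650, replicate 1 had a summit of 143 fragments and 18.1-fold (15.3 to 21.3). Replicate 2 had it 8 bp away, with 33 fragments and 5.16-fold (3.60 to 7.18). That summit lay in the 1000 bp window of no protein-coding gene.

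SOM encodes a CCCH zinc finger protein that holds back germination in the dark, downstream of the light-labile factor PIF1. Beyond its higher-coordinate end it had the highest fold of the 9 genes in replicate 1, 16.3 (13.8 to 19.2) with 150 fragments at position 957069 of chromosome 1. Replicate 2 had 5.10-fold (3.60 to 7.04) with 35 fragments at position 957053, 16 bp away. This summit lay 925 bp outside SOM and 35 bp outside ERF10 (AT1G03800), an ethylene response factor gene, so it was near the edge of the SOM window and much nearer to ERF10. In both replicates its peak had further summits on the SOM side, at position 956640 (6.52-fold) in replicate 1 and at 956622 (3.01-fold) and 956906 (4.70-fold) in replicate 2.

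A lower SOM site stood at the other end, inside the gene. It lay 47 bp from the lower-coordinate end at position 954337 in replicate 1, with 32 fragments and 3.30-fold (2.29 to 4.61). In replicate 2 it lay 30 bp away at position 954367, with 18 fragments and 2.53-fold (1.55 to 3.92). It kept 0.766 of its fold in replicate 2, a higher ratio than 91.9% of all shared pairs had. A pair needs a called replicate 2 peak, so a low replicate 1 fold leaves little room for a low ratio. The ratio was not compared with pairs of like fold. Replicate 1 had a further summit inside SOM at position 955547 (2.27-fold) that replicate 2 did not have. Outside the window both replicates had summits on either side of SOM. The one at 1277 bp in replicate 1 reached 6.39-fold, with 4.08-fold in replicate 2, and the one at 2043 bp, inside ERF10, reached 11.7-fold, with 5.07-fold in replicate 2.

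Ordered by their strongest summit in replicate 1, the genes ran SOM, MFT, DOG1, RDO5, DOGL1, HUB1, DOGL2, DOGL3 and DOGL4. SOM and MFT overlapped in their intervals, as did DOG1 and RDO5, and as did each neighbour from DOGL1 to DOGL4. MFT and DOG1 stood apart, as did RDO5 and DOGL1. In replicate 2 the order was MFT, SOM, RDO5, DOG1 and DOGL1, and each overlapped the next. In this window SOM and MFT led in both lists, with DOG1 and RDO5 behind them and DOGL1 last of the 5. The place of SOM rested on the summit next to ERF10. With the window drawn at 500 bp, the strongest SOM summits were 6.52-fold in replicate 1 and 3.01-fold in replicate 2. These were below those of DOG1, with overlapping intervals in both replicates. The 2 SOM summits lay 496 and 478 bp outside SOM and 464 and 482 bp outside ERF10, so they were about as near to ERF10. The shared site inside SOM had 3.30-fold in replicate 1 and 2.53-fold in replicate 2. Against the medians of the 3651 genes met in both replicates (8.60 and 3.44), RDO5 had 7.75 and 3.45. DOG1 had 8.60 and 3.12 from summits 2165 bp apart, and its interior site alone had 8.60 and 2.66. MFT and SOM were above both medians, and DOGL1 below both.

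**Figure D3:**
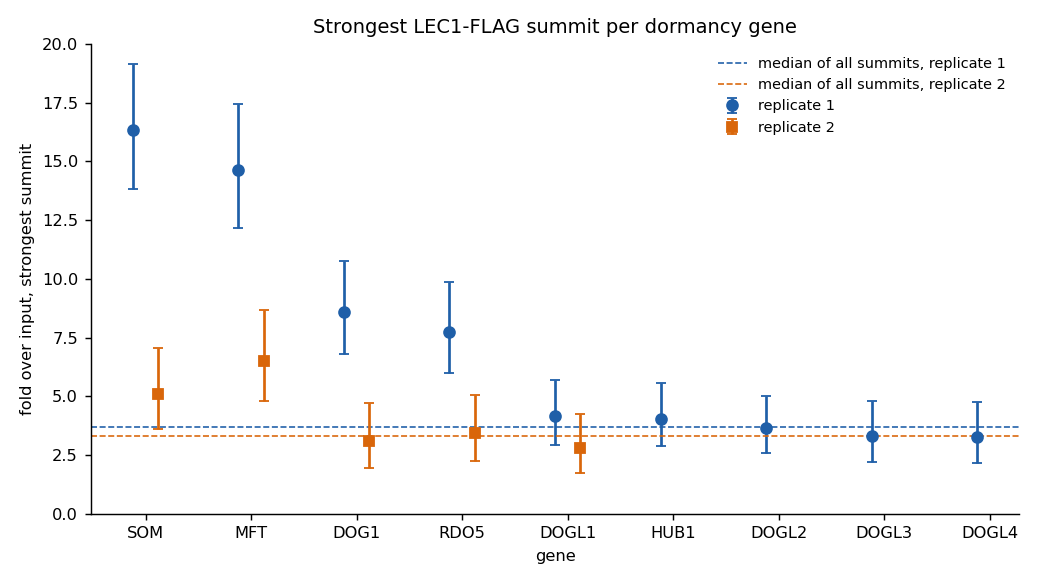
Fold over input of the strongest summit in the window of each gene, with 95% Poisson intervals of the pileup (circles, replicate 1; squares, replicate 2) and dashed lines at the median of all summits of each replicate. SOM (16.3) and MFT (14.6) stand above the rest in replicate 1, and the 4 genes with no square had no replicate 2 summit in the window.

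Strength in replicate 1 went with being found again. All nuclear replicate 1 peaks were ranked by fold and cut into 10 equal groups. The strong MFT and SOM peaks fell in the top group, of which 93.8% had a partner in replicate 2. The RDO5 peak and the interior DOG1 peak fell in the next, with 58.8%. HUB1 fell in a group with 10.2%, DOGL2 in one with 5.54%, and DOGL3 and DOGL4 in one with 3.17%. Most replicate 1 peaks with folds like those at the last 4 genes thus had no partner. Other members' peaks from the same groups did have one, namely the outer DOG1 peak and the shared DOGL1 peak, from the group with 10.2%, and the SOM peak at the lower-coordinate end, from the group with 3.17%. Why replicate 2 lists no summit at HUB1, DOGL2, DOGL3 and DOGL4 was not tested, and a missing call does not show that a site is absent. At all 7 pairs the replicate 2 fold was the lower, by ratios of 0.309 to 0.766.

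**Figure D4:**
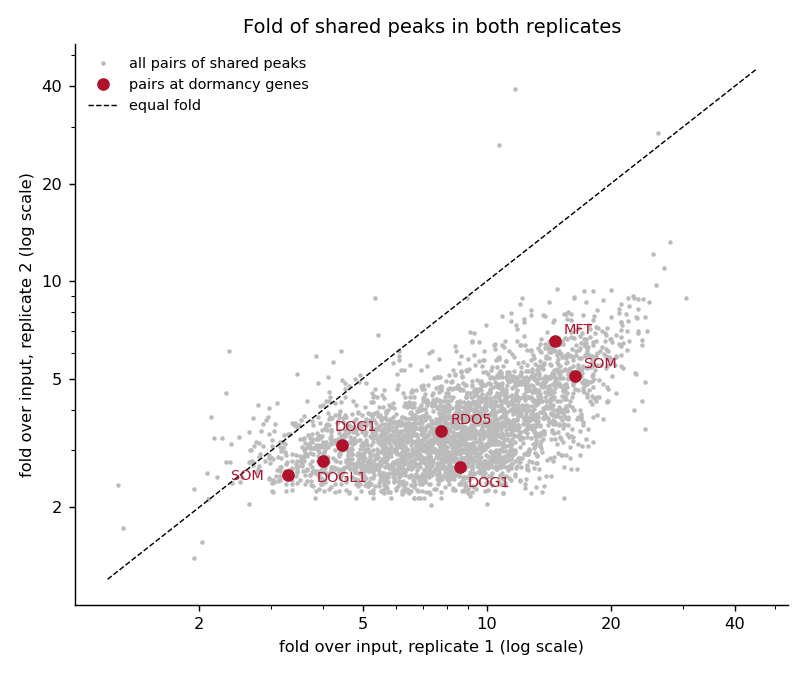
Fold over input of the 3188 pairs of shared peaks in replicate 1 and replicate 2, both axes on a log scale, with the 7 pairs at dormancy genes in red and equal fold as a dashed line. All 7 pairs lie below the line, as most of the 3188 pairs do. MFT and SOM sit at the upper right and the low SOM, DOGL1 and outer DOG1 pairs at the lower left.

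For the 2 replicates as a pattern, the genes most like MFT were looked up by the distance between log2 folds of their strongest summits over both lists. The 3 nearest that did not share its summits were HSD6 (AT5G50770), with 14.4 and 6.52, and the neighbours LEA4-5 (AT5G06760) and AT5G06770, which share a peak, with 14.9 and 6.50. Their distances from MFT were 0.023 for HSD6 and 0.026 for the others on the log2 scale. These distances are far smaller than the counting error of MFT itself, whose intervals were 12.2 to 17.4 and 4.79 to 8.68. Which genes are most like MFT is therefore not settled by these values.

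The wider dormancy pathway was read from 42 other genes in 5 lists. Of these, 15 had a summit in both replicates (13.3% of all protein-coding genes did), 31 in replicate 1 (48.2%) and 15 in replicate 2 (13.5%). Of the list nearest to DOG1 action, 6 of 8 were met in both replicates. It held the phosphatase genes AHG1 (AT5G51760) and AHG3 (AT3G11410), whose proteins DOG1 binds, and factors of seed maturation. AHG1 had 154 fragments and 19.0-fold (16.1 to 22.2) in replicate 1, and 50 fragments and 7.00-fold (5.23 to 9.18) in replicate 2, 12 bp away. AHG3 had 151 fragments and 17.6-fold (14.9 to 20.6) in replicate 1, and 45 fragments and 5.44-fold (4.00 to 7.24) in replicate 2, 16 bp away. Both phosphatase genes therefore had higher folds than DOG1 in each replicate, with intervals that did not overlap in replicate 1. In replicate 2 the interval of AHG1 lay above that of DOG1 and the interval of AHG3 overlapped it. ABI5, the bZIP factor of abscisic acid responses, had 22.9 and 5.21, and the B3 factors FUS3 and ABI3 had 11.7 and 39.1, and 16.2 and 4.78. Unlike the other pathway genes met in both replicates, FUS3 had the higher fold in replicate 2, with 293 fragments against 121 in replicate 1. Over all shared pairs the median ratio of replicate 2 to replicate 1 fold was 0.412. Why FUS3 departs from this was not tested. The members not met in replicate 2 were the B3 factor gene LEC2 (7.43 in replicate 1) and ABI4 (2.14).

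**Figure D5:**
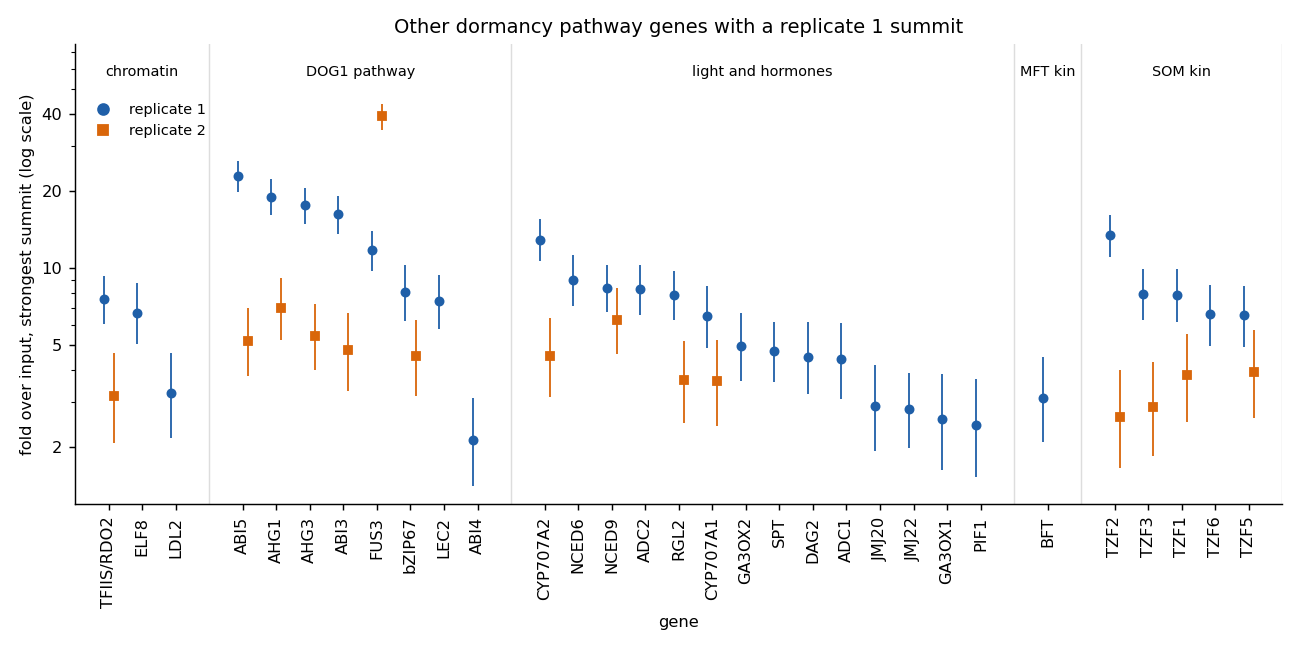
Fold over input (log scale) of the strongest summit in the window of each of the 31 other pathway genes that had a replicate 1 summit, by list, with 95% Poisson intervals of the pileup (circles, replicate 1; squares, replicate 2). The 15 genes with a square had a summit in both replicates; FUS3 is the gene with a higher fold in replicate 2 (39.1) than in replicate 1 (11.7).

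Genes of light, abscisic acid and gibberellin control around SOM were met in replicate 1 at 14 of 15 (48.2% of all genes were), and in both replicates at 4 (13.3% of all genes). These 4 were NCED9 (8.36 and 6.28), which makes abscisic acid in seeds, CYP707A2 (12.9 and 4.54) and CYP707A1 (6.48 and 3.62), which break it down, and RGL2 (7.88 and 3.65), a DELLA repressor of germination. The strongest CYP707A1 summits of the replicates lay 1440 bp apart, so these folds are not from the same site. PIF1, the regulator above SOM, had 2.43-fold in replicate 1 and no summit in replicate 2. The histone demethylase genes JMJ20 and JMJ22 had 2.89-fold and 2.82-fold, also in replicate 1 alone.

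The last 3 lists stand beside the same shares of all genes, 48.2% in replicate 1 and 13.3% in both replicates. Of the 5 other tandem zinc finger genes, relatives of SOM, all had a replicate 1 summit and 4 had summits in both replicates. These were TZF5 (6.53 and 3.94), TZF1 (7.88 and 3.81), TZF3 (7.95 and 2.88) and TZF2 (13.4 and 2.63). Of these 4, TZF3 and TZF2 had summits of both replicates within 150 bp, while the strongest summits of TZF5 lay 165 bp apart and those of TZF1 177 bp apart. None of the 5 relatives of MFT (FT, TSF, TFL1, BFT and ATC) had a summit in both replicates, and BFT alone had a replicate 1 summit, at 3.11-fold. Of 9 chromatin and transcription genes that act with HUB1 or on DOG1, 3 had a replicate 1 summit and 1 was met in both replicates. That gene was TFIIS, known as RDO2, an elongation factor needed for full dormancy, with 7.55 and 3.18. HUB2, the partner of HUB1, had no summit in either replicate. No test was made on any of these lists, since the genes were chosen with earlier results of these data known.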

How the data were processed

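Peaks in this series came from 2 LEC1-FLAG ChIP libraries, each with its own input, and no file of the input libraries was used. Per the submitters' processing notes, tools were BWA 0.7.12 and MACS2 2.1.0.20150420 and the build TAIR10. Per the file headers, peaks were called per replicate at a q threshold of 0.05 with several summits per peak, at most 1 tag per position and strand, and fragments extended to 187 bp in replicate 1 and 149 bp in replicate 2, from alignments whose names point to uniquely mapped, deduplicated reads. Values set side by side across replicates thus come from separate calls. As deposited, the pileup is a signal and the fold is a ratio over the background the peak caller used. Significance was deposited as −log10 values, a p-value and a q-value for each summit. Background was computed back as (pileup + 1) / fold.

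Peaks of the replicates were paired when the overlap covered 50% or more of the shorter, each represented by its summit of highest fold. Genes came from a RefSeq table of assembly TAIR10.1, in which all 9 members and 42 pathway genes matched by locus. Strand, exons and sequence were not used here, so gene start and end, exon and intron, and the planned search for sequence elements and protein identity were not analysed. The names DOGL1 to DOGL4 come from the list of members. Named pathway genes were those met in both replicates, up to 5 per list by the smaller fold. LEC2, ABI4, PIF1, JMJ20, JMJ22, BFT and HUB2 were named after their values were seen. The members and lists were chosen with earlier results of these data known. With 1 condition and 2 replicates there is no contrast to test, so counts are set beside the share of all genes. Assignment and pairing were tested on simulated data. Python 3.11.15, numpy 2.4.6, pandas 2.3.3, scipy 1.17.1 and matplotlib 3.10.9 were used.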

Additional observations from a re-analysis of the deposited data

How the results depend on the processing

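The 5 genes met in both replicates did not all hold under stricter settings. With 500 bp outside either end, 3 remained (DOG1, MFT and SOM), and 3 in replicate 2 alone, against 10.4% and 10.6% of all genes. With −log10 q of at least 5, 3 remained (MFT, RDO5 and SOM), and 3 in replicate 2 alone, against 7.57% and 7.7%. With −log10 q of at least 10, 2 remained (MFT and SOM), and 2 in replicate 2 alone, against 2.95% and 2.98% of all genes. At both −log10 q settings, the replicate 2 summits that kept SOM lay nearer to ERF10 than to SOM. Leaving out 1 replicate gave 5 to 9 members and 15 to 31 pathway genes, and the higher counts were those without replicate 2, where 48.2% of all genes were met. Pathway genes in both replicates fell to 7 at −log10 q of at least 10. The gene-end window (without MFT), the nearest gene alone (without DOGL1) and an overlap of 50% of both peaks (without DOGL1) each gave 4 members, against 11.7%, 9.39% and 6.26% of all genes. The 2000 bp window and summits within 150 bp of each other gave 5, against 18.1% and 12.7%. Folds of the 14 strongest summits stayed inside their intervals without the added 1, at 1.08 to 1.14 times the deposited fold, and by pileup in place of fold. Neither list has a nuclear summit under 15 fragments, so sites below that pileup were not seen in either. No paired analysis was possible because peaks were called on each ChIP library over its input. The input thus enters only through the background inside each fold, and no ChIP and input samples could be paired in a fit.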
